A study of Mus musculus with 6 samples.

Results

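Imprinted genes were examined in neurospheres, the floating colonies that neural stem and progenitor cells form in culture, from adult offspring of mice injected during pregnancy. The genes were a list of 34 known imprinted genes, looked up by current or older symbol among the deposited array values, and 30 of them had a probe set that pairs with that gene only. H19, Rtl1, Mirg and Snrpn share their probe sets with other genes and were not analysed here. Of the 30, out of 22180 genes tested in all, 15 are known to be expressed from the paternal allele and 12 from the maternal allele. In the other 3, Grb10, Blcap and Gnas, the expressed allele depends on the tissue or the transcript. Among the 12, Ube3a is known to be imprinted in neurons, and Gatm and Dcn in the placenta, so the class need not hold in neurospheres.

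All animals were CD1 mice, an outbred stock, and no label names an engineered allele in either group. The mothers of the PBS group (3 animals) received PBS, and those of the MG group (3 animals) received MG at 0.5 mg/kg, in 2 intraperitoneal injections a day from gestational day 12 to birth. MG is read here as methylglyoxal, from the series title. Cells of the subependymal region of offspring aged 2 months grew for 7 days with EGF and FGF2, so the values describe expanded cultures and not the tissue, and each culture was read on 1 Affymetrix Mouse Gene 2.0 ST array. The labels do not say whether animals of a group shared a mother, so p-values measure only the spread between these samples, and litter and injection cannot be told apart.

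Imprinted genes are expressed mainly from the copy inherited from 1 parent. The choice is set by DNA methylation laid down in the egg or sperm at control regions and kept through later cell divisions, and many imprinted genes sit in clusters that share such a region. They are known for roles in fetal growth, in the placenta and in the brain, and several, among them Dlk1 and Cdkn1c, are studied as regulators of adult neural stem cells. The arrays read the total RNA of a gene, so the values do not show which allele it came from.

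The neural stem cell markers Nes, Sox2, Vim, Slc1a3, Fabp7, Prom1 and Gfap were all above the reference level, by which the means of both groups are meant throughout. That level, 5.02 on the log2 scale, is the 95th percentile of the mean values of 1390 olfactory and vomeronasal receptor genes, which neural cells are not expected to use, and it was chosen after the data had been seen. Of 5 microglial markers 2 lay above it on every array, Cx3cr1 (5.65 to 6.20) and P2ry12 (5.12 to 5.67), while the pan-leukocyte gene Ptprc lay below it on every array (3.18 to 3.35). Arrays numbered 3, in both groups, stood apart from the other 4: of 13704 genes above the reference level, 22.5% were highest on both of these arrays and 18.8% lowest. The proliferation marker Mki67 was among the former, at 11.12 in PBS replicate 3 and 11.11 in MG replicate 3, against 10.46 to 10.86 elsewhere. The labels attach no shared litter or day to the number 3.

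**Figure D1:**
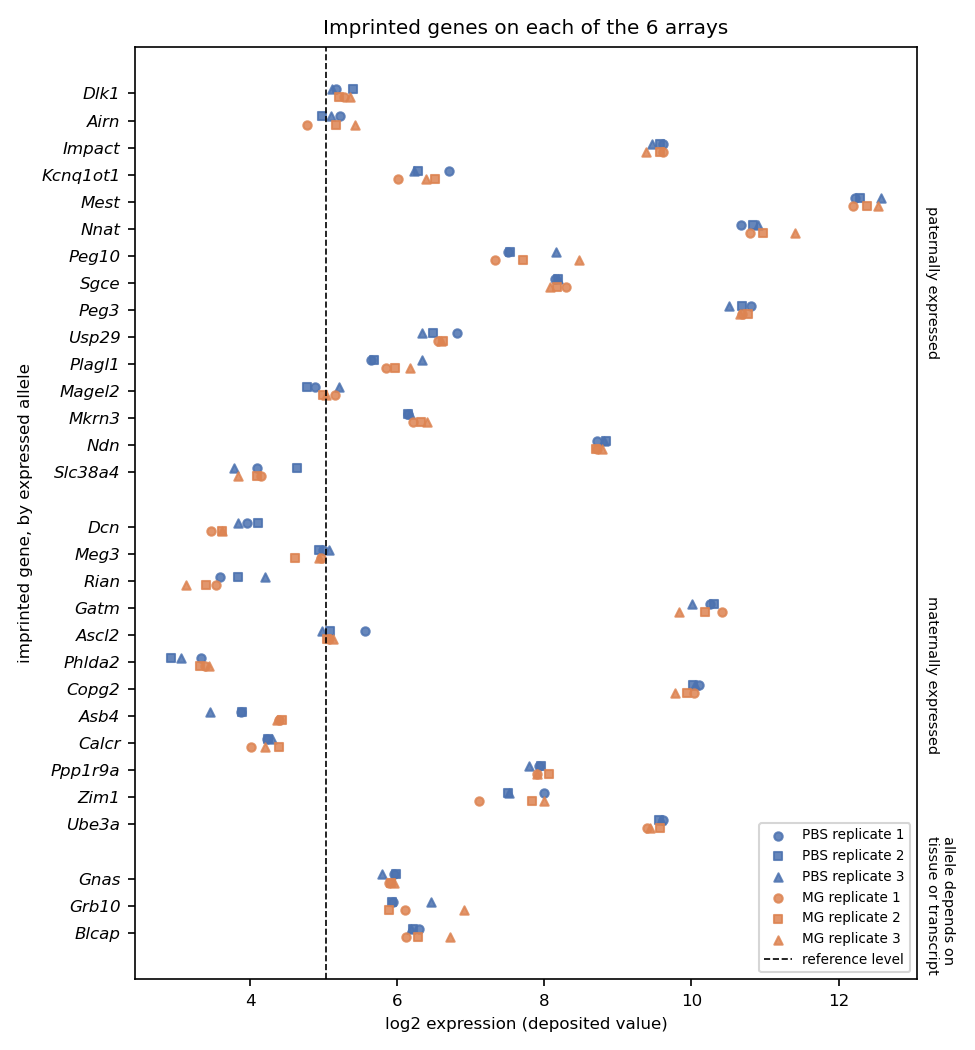
Deposited log2 value (horizontal axis) of each of the 30 imprinted genes (rows, grouped by expressed allele) on the 6 arrays, with colour for group, marker shape for replicate number and a dashed line at the reference level of 5.02. Of the paternally expressed genes 13 of 15 lie above the line in both group means, and of the maternally expressed genes 6 of 12 do; values of different genes come from different probes and are not comparable with each other.

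Most imprinted genes differed little between offspring of MG-injected and PBS-injected mothers, and none passed the test. Of the 30, 17 had a higher and 13 a lower mean in MG, a split close to that of all genes, of which 53.8% were higher. The median log2 difference was 0.01 over the imprinted genes and 0.01 over all genes. With limma and Benjamini-Hochberg adjustment across the whole array, 0 imprinted genes were called (adjusted p = 0.9998 for each), as were 0% of all genes. At an unadjusted p under 0.05 there were 3 of 30, Asb4, Rian and Dcn, against 3.21% of all genes. All 3 lay below the reference level in both group means, where a probe set may read little more than background, so their differences are given as measured and without a fold. Among the 22 imprinted genes above the reference level, 0 had an unadjusted p under 0.05, against 1.60% of all genes at such levels, and their smallest unadjusted p was 0.179 (Nnat). Their log2 differences ran from -0.14 (Copg2) to 0.25 (Nnat). Without MG replicate 3 these differences were -0.08 in Copg2 and 0.08 in Nnat.

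The groups did not overlap in 4 of the 30 genes, against 7.34% of all genes, and in 1 of the 22 above the reference level, against 5.47%. That 1 gene was Mkrn3, described below with its locus. The 95% confidence intervals of the 22 reached furthest down in Zim1, to -0.59, and furthest up in Grb10, to 0.82. The narrowest ones were as short as that of Ndn, from -0.31 to 0.20. A log2 difference between group means below -0.59 or above 0.82 lies outside the intervals of all 22. For a single gene the bounds are those of its own interval, and differences inside it could not be resolved with 3 animals a group. The median standard error of the 22 was 0.147.

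**Figure D2:**
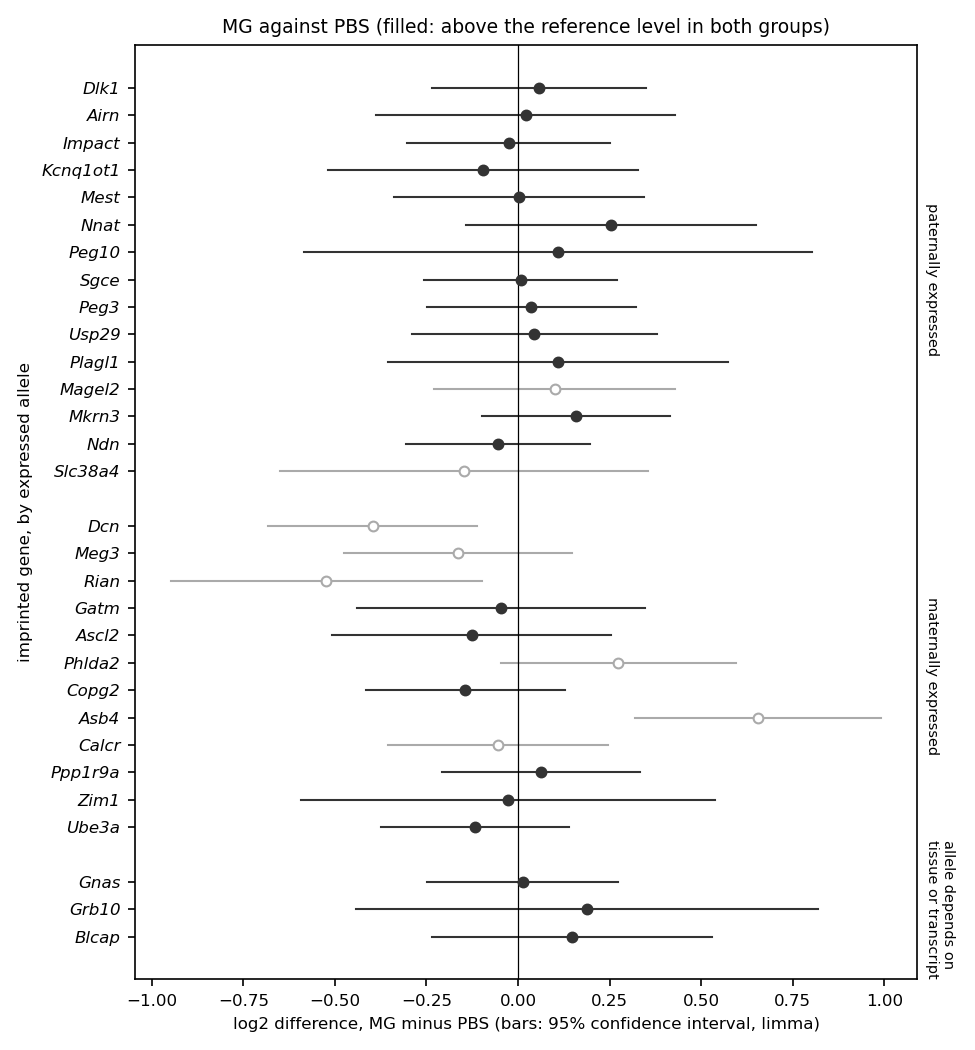
Log2 difference, MG minus PBS (horizontal axis), of each imprinted gene with its 95% confidence interval from limma, n = 3 a group; filled points are genes above the reference level and open grey points are the others. The intervals of all filled points include 0, and the 3 that do not, those of Asb4, Rian and Dcn, belong to open points.

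Within this list of 30, paternally expressed genes had mostly higher means in MG and maternally expressed genes mostly lower ones. Of the 15 paternally expressed genes 11 were higher and 4 lower, with a median log2 difference of 0.04. Of the 12 maternally expressed genes 3 were higher and 9 lower, with a median of -0.09, beside 0.01 over all genes. With only genes above the reference level the counts were 10 higher and 3 lower for paternal expression (median 0.04), and 1 higher and 5 lower for maternal expression (median -0.08). Without both arrays numbered 3 the paternal median was 0.0031, and the maternal one was -0.09. Of the paternally expressed genes, Dlk1 (-0.040), Peg3 (-0.019), Usp29 (-0.063) and Airn (-0.13) were then lower in MG, and Impact (0.0031) was higher. With 1 array left out the paternal median ran from 0.01 to 0.06 and the maternal one from -0.12 to -0.04, and the maternal one was -0.05 with the mean of the probe sets of a gene. No test was made of the 2 classes against each other, because the members were chosen with results of these data known. Whether the known classes hold in these cultures was not tested. The further 39 imprinted genes described below were not split by expressed allele, so the pattern is given for this list only. Of those 39, 15 had a higher and 24 a lower mean in MG, with the paternally expressed Rasgrf1 (-0.45) among the lower. Ube3a, Gatm and Dcn, imprinted in neurons or the placenta, were among the 9 lower maternally expressed genes.

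Mest, which shares a locus with Copg2, encodes a hydrolase-like protein made from the paternal allele. It stood at 12.22, 12.29 and 12.58 after PBS and at 12.19, 12.39 and 12.53 after MG, with the highest on the array numbered 3 in either group. The groups overlapped throughout, and the log2 difference was 0.0033 (standard error 0.15, 95% interval -0.34 to 0.35). Copg2, a coatomer subunit of vesicle transport whose gene overlaps the end of Mest on the other strand, is expressed from the maternal allele. It stood at 10.11, 10.02 and 10.05 on the PBS arrays and at 10.03, 9.94 and 9.78 on the MG arrays. The 2 lowest values of Copg2 were both MG, but MG replicate 1 lay within the PBS range, and the difference of -0.14 (standard error 0.12) had an unadjusted p of 0.259 in limma. Copg2 was highest in PBS replicate 1 and Mest in PBS replicate 3.

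The 250 bases before a start of Mest and of Plagl1 are shown because both genes were highest on both arrays numbered 3 and both stretches hold the letters TGCCGC, which ZFP57, a zinc finger protein that protects imprints, is known to recognise when methylated. Capitals mark these letters, read on either strand (GCGGCA on the strand shown). The sequences are RefSeq's, build GRCm38.p6, plus strand, at chr6:30737800-30738049 for Mest and chr10:13090582-13090831 for Plagl1.
Mest: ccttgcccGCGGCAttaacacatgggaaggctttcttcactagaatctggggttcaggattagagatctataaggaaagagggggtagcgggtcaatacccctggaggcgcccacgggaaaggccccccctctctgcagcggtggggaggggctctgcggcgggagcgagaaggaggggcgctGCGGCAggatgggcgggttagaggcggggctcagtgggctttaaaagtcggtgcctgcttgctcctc
Plagl1: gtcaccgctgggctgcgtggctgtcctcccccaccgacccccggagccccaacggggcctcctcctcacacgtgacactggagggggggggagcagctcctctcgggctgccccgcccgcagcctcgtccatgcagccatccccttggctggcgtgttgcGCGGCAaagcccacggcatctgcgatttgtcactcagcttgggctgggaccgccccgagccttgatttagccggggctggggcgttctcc
The Mest stretch holds the letters 2 times and that of Plagl1 1 time. Over the 28 listed genes with an entry in the table of promoters, which spans 250 bases before to 50 after each start, 9 (32.1%) had the letters on either strand in at least 1 window, against 13.1% of all 27025 genes. Of the imprinted genes 32.1% had more than 1 window, against 15.4% of all, and by single window the shares were 23.3% and 11.6%. By expressed allele the counts were 4 of 13 paternal and 4 of 12 maternal genes. The median of each gene's highest observed over expected CpG ratio was 0.654 in the imprinted genes and 0.415 in all genes, and the letters TGCCGC themselves hold a CpG. These are matches of letters, not binding sites, and Peg10, Sgce, Impact, Dcn, H19 and Rtl1 had no entry.

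Plagl1, a zinc finger transcription factor at the centre of a described network of imprinted growth genes, stood at 5.64, 5.69 and 6.33 after PBS and at 5.85, 5.97 and 6.17 after MG. PBS replicate 3 was the highest of the 6 and PBS replicates 1 and 2 the lowest, so the MG values lay inside the PBS range. Its log2 difference was 0.11 (standard error 0.20), and it was 0.25 (unadjusted p = 0.0970 in limma) without both arrays numbered 3. Plagl1 has 2 probe sets, and their mean gave 0.23 (unadjusted p = 0.174). Plagl1 was 1 of 4 imprinted genes highest on both arrays numbered 3, with Mest, Grb10 and Peg10, out of 22 above the reference level. Another 4 of the 22 were lowest on both, namely Peg3, Ppp1r9a, Impact and Gatm. Each count is 18.2% of the 22, against 22.5% and 18.8% of all genes at such levels. The 3 measured markers of dividing progenitors, Mki67, Dlx2 and Egfr, summed to between 29.82 and 30.72 in PBS and to between 30.06 and 30.96 in MG, on the log2 scale. The part of proliferation in the values of these genes was not tested.

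The Peg3 locus holds Peg3, a zinc finger protein gene known for effects on maternal behaviour and growth, and Usp29, a relative of the ubiquitin proteases. Both are expressed from the paternal allele and start back to back. Zim1, another zinc finger gene, is expressed from the maternal allele. Peg3 stood at 10.80, 10.69 and 10.51 on the PBS arrays and at 10.68, 10.77 and 10.65 on the MG arrays. Usp29 stood at 6.81, 6.48 and 6.34 after PBS and at 6.55, 6.62 and 6.598 after MG. Both genes were thus highest in PBS replicate 1 and lowest in PBS replicate 3, with the MG animals between. The log2 differences were 0.04 (standard error 0.12) for Peg3 and 0.04 (standard error 0.15) for Usp29. Zim1 was the most variable gene of the locus, at 7.99, 7.51 and 7.52 on the PBS arrays and at 7.12, 7.83 and 7.99 on the MG arrays. Its log2 difference was -0.03 (standard error 0.25), with the lowest value in MG replicate 1, and without that replicate it was 0.24.

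The 96 bases between the gene models of Peg3 (on the minus strand, to the left) and Usp29 (on the plus strand, to the right) are shown. This short stretch separates 2 paternally expressed genes whose values lay in the same order on the PBS arrays. Kcnq1ot1, Impact, Ascl2 and Blcap, at other loci, had that order too, and on the MG arrays the orders of Peg3 and Usp29 differed. It lies at chr7:6730463-6730558 (RefSeq, GRCm38.p6, plus strand), and capitals mark its 3 CpG sites.
Peg3 to Usp29: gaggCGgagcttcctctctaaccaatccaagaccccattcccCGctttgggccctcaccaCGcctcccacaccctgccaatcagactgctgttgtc
The letters TGCCGC occurred 0 times in it on either strand, and 0 times in the longer promoter windows of Peg3 and Usp29.

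In the Peg10 locus, 1 gene followed the arrays numbered 3 and its neighbour did not. Peg10, a gene derived from a retrotransposon and needed for the placenta, stood at 7.51, 7.53 and 8.16 after PBS and at 7.33, 7.71 and 8.48 after MG. It had the widest range of the 22 genes above the reference level, 1.14 on the log2 scale, and the arrays numbered 3 were the 2 highest. The log2 difference between the groups was 0.11 with a standard error of 0.30, and -0.21 without MG replicate 3. Sgce, the epsilon-sarcoglycan gene whose loss causes a movement disorder in humans, is also expressed from the paternal allele and starts next to Peg10 in the opposite direction. It stood at 8.15, 8.19 and 8.18 on the PBS arrays and at 8.29, 8.17 and 8.08 on the MG arrays, a range of 0.22. The mean of the arrays numbered 3 exceeded that of the other 4 by 0.79 in Peg10, and the same difference was -0.07 in Sgce.

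The maternally expressed neighbours were split. Ppp1r9a, which encodes neurabin, an actin-binding protein of synapses, stood at 7.93, 7.95 and 7.79 after PBS and at 7.90, 8.06 and 7.90 after MG, a log2 difference of 0.06 (standard error 0.12). Calcr, the calcitonin receptor gene, was below the reference level on every array, between 4.02 and 4.39. Asb4, an ankyrin repeat and SOCS box gene, was also below it on every array. It stood at 3.88, 3.88 and 3.45 on the PBS arrays and at 4.39, 4.43 and 4.36 on the MG arrays. The MG values were tightly grouped and all lay above the PBS values. The log2 difference was 0.66 (standard error 0.15, unadjusted p = 0.00205, adjusted p = 0.9998 in limma), and it ran from 0.51 to 0.73 with 1 array left out. An exact permutation test (two-sided) returned 0.1, its smallest possible p with 3 animals a group.

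**Figure D3:**
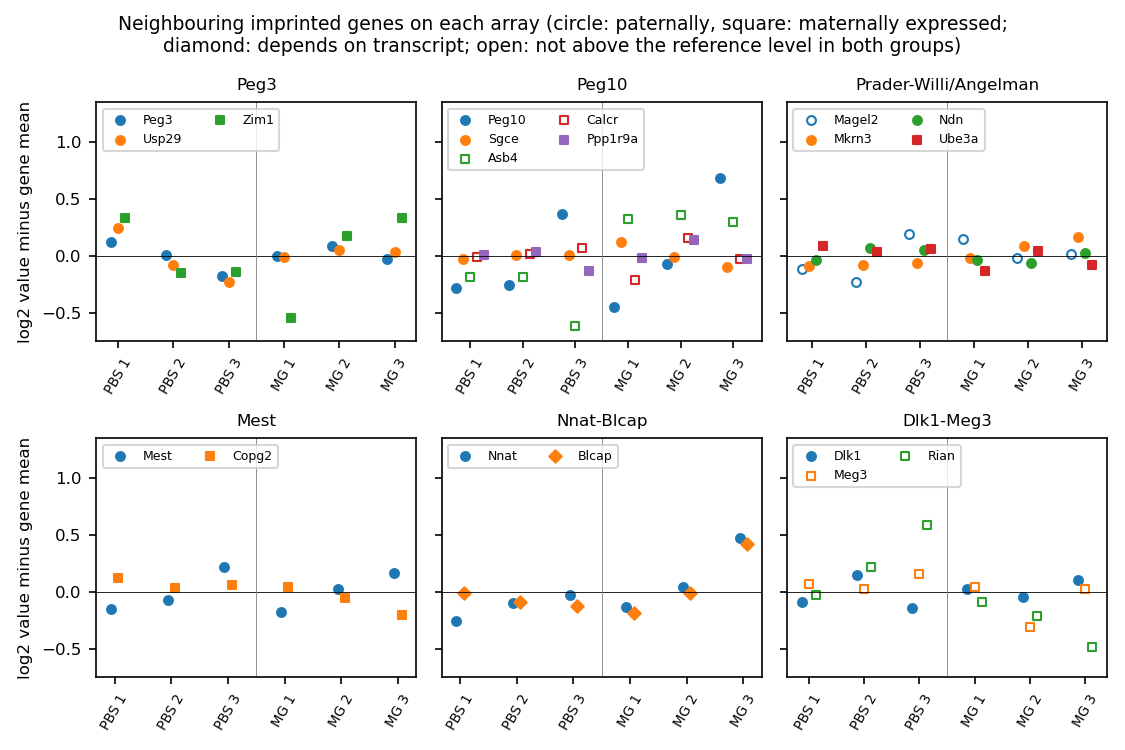
Log2 value of each imprinted gene minus its own mean over the 6 arrays (vertical axis), by array (horizontal axis), in 6 loci; circles mark paternally, squares maternally expressed genes, a diamond Blcap, and open symbols genes not above the reference level. Peg10 and Sgce part on the arrays numbered 3, Nnat and Blcap are both highest in MG replicate 3, and Asb4 is the gene of the Peg10 locus whose MG values all exceed its PBS values.

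At the locus of Prader-Willi and Angelman syndromes the values varied little. Mkrn3, a makorin ring finger gene known for restraining the onset of puberty, stood at 6.14, 6.15 and 6.17 after PBS and at 6.22, 6.32 and 6.40 after MG. All MG values lay above all PBS values, in a narrow range. The log2 difference was 0.16 (standard error 0.11), or 1.12-fold, with an unadjusted p of 0.193 in limma. The exact two-sided permutation p was 0.1, the smallest possible. The ordinary linear model without moderation, which rests on the gene's own small spread, gave 0.0414 as the unadjusted p and 0.9999 after adjustment. Ndn, which encodes necdin, a growth suppressor of neurons, stood at 8.72, 8.83 and 8.81 on the PBS arrays and at 8.72, 8.70 and 8.78 on the MG arrays, the smallest range of the 22 genes (0.14). Its relative Magel2 was near the reference level, at 4.89, 4.78 and 5.20 after PBS and at 5.16, 4.99 and 5.03 after MG. Ube3a, the ubiquitin ligase gene of Angelman syndrome, is silenced on the paternal allele in neurons. It stood at 9.61, 9.56 and 9.58 on the PBS arrays and at 9.39, 9.57 and 9.44 on the MG arrays, a log2 difference of -0.12 (standard error 0.11), with MG replicate 2 inside the PBS range. The mean of its 2 probe sets gave -0.03 (unadjusted p = 0.876 in limma).

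Genes of the Dlk1-Meg3 locus were near or below the reference level. Dlk1, a Delta-like transmembrane protein of the paternal allele, stood at 5.16, 5.405 and 5.11 after PBS and at 5.28, 5.21 and 5.36 after MG, a log2 difference of 0.06 (standard error 0.13). Meg3, the long noncoding RNA of the maternal allele, was read by a probe set at 4.98, 4.94 and 5.07 on the PBS arrays and at 4.96, 4.61 and 4.94 on the MG arrays. Other probe sets pair Meg3 with further genes and were not used, so these values need not reflect the whole transcript. Rian, a noncoding RNA that carries small nucleolar RNAs, stood at 3.59, 3.84 and 4.21 after PBS and at 3.53, 3.40 and 3.13 after MG. All its MG values lay below all PBS values, MG replicate 1 only narrowly. The log2 difference was -0.52 (standard error 0.18, unadjusted p = 0.0218 in limma), it was -0.25 without both arrays numbered 3 (unadjusted p = 0.135), and without moderation the unadjusted p was 0.0709. Without PBS replicate 3 it was -0.36 (unadjusted p = 0.0722) and without MG replicate 3 it was -0.41 (unadjusted p = 0.0657).

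MicroRNA genes that lie in imprinted transcripts, nearly all of them in the Dlk1-Meg3 locus, were also on the array. Of a list of 54 names 39 had a probe set of their own, of which 7 lay above the reference level, and of these 0 had an unadjusted p under 0.05. Of these 7, 1 had a higher and 6 a lower mean in MG, with a median log2 difference of -0.22, while 56.9% of all genes above the reference level were higher. Among the 6 was Mir329, at 5.97, 6.32 and 6.09 on the PBS arrays and at 5.60, 5.93 and 5.93 on the MG arrays, without overlap (log2 difference -0.30, standard error 0.15, unadjusted p = 0.0767 in limma). Over all 39, 19 had a higher and 20 a lower mean in MG. Mir543, Mir376a and Mir409, 3 of 39 (7.69%), had an unadjusted p under 0.05, against 3.21% of all genes. All 3 had higher means in MG and no overlap between the groups, but all lay below the reference level. Over the 39 the groups did not overlap in 6 (15.4%), 4 higher and 2 lower in MG, against 7.34% of all genes. Above the reference level Mir329 was the 1 of 7 without overlap (14.3%, against 5.47%). Mir376a and Mir409 have 2 probe sets each, of which the brighter was used. Mir543 stood at 3.32, 2.86 and 3.05 on the PBS arrays and at 3.50, 3.67 and 3.57 on the MG arrays (unadjusted p = 0.00868 in limma). Mir376a stood at 1.62, 1.67 and 1.40 against 1.85, 2.30 and 2.04 (unadjusted p = 0.0107), and Mir409 at 3.92, 4.09 and 4.28 against 4.66, 4.29 and 4.63 (unadjusted p = 0.0237). Rian and these 3 therefore lay on opposite sides of 0. Such probe sets read RNA from the hairpin's gene in a total RNA sample and do not measure the mature microRNA. The mature sequences of these 3 genes (RefSeq, GRCm38.p6) are shown because theirs were the differences past that mark, with the seed, bases 2 to 8, in capitals.
mmu-miR-376a-3p: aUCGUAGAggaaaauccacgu
mmu-miR-376a-5p: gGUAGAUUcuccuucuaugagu
mmu-miR-409-3p: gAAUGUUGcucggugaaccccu
mmu-miR-409-5p: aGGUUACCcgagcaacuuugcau
mmu-miR-543-3p: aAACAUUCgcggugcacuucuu
mmu-miR-543-5p: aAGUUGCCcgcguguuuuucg
No seed of these was shared with another mature sequence available for the 39 microRNA genes with a probe set of their own. Some of the 39 had only 1 such sequence, and the other listed names were not compared.

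Nnat lies inside an intron of Blcap, on the other strand, and the pair peaked in the same animal. Nnat encodes neuronatin, a small membrane protein of developing brain expressed from the paternal allele. It stood at 10.68, 10.84 and 10.90 after PBS and at 10.79, 10.98 and 11.40 after MG. Blcap, a gene linked to apoptosis, stood at 6.29, 6.21 and 6.18 on the PBS arrays and at 6.12, 6.29 and 6.72 on the MG arrays. MG replicate 3 was the highest of the 6 in both genes. The peak was not particular to this pair, since that array was the highest in 6 of the 22 genes above the reference level. The others were Grb10, Mkrn3, Peg10 and Airn. MG replicate 1 was inside the PBS range of Nnat and below that of Blcap. MG replicate 2 was above that of Nnat and inside that of Blcap. The log2 difference of Nnat was 0.25 (standard error 0.17), or 1.19-fold, and it was 0.13 without both arrays numbered 3. It was 0.08 without MG replicate 3 alone, 0.39 without MG replicate 1, and 0.10 as the mean of the 2 probe sets of Nnat. That of Blcap was 0.15 (standard error 0.17), and it was -0.02 without MG replicate 3.

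Around Kcnq1, the noncoding RNA Kcnq1ot1, which silences neighbouring genes on the paternal chromosome, stood at 6.70, 6.28 and 6.23 after PBS and at 6.01, 6.52 and 6.40 after MG. Its log2 difference was -0.10 (standard error 0.18), with the highest value in PBS replicate 1 and the lowest in MG replicate 1. Of the maternally expressed genes of the same cluster, Ascl2, a basic helix-loop-helix factor of the placenta, stood at 5.56, 5.08 and 4.98 on the PBS arrays and at 5.07, 5.05 and 5.13 on the MG arrays. Phlda2, a placental growth regulator, was below the reference level on every array, between 2.92 and 3.44. Airn, the noncoding RNA that silences Igf2r on the paternal chromosome, was near the reference level, between 4.77 and 5.42.

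Grb10, an adaptor protein that restrains insulin and growth factor receptors, is expressed from the maternal allele in most tissues and from the paternal allele in neurons. It stood at 5.94, 5.93 and 6.46 after PBS and at 6.10, 5.88 and 6.91 after MG, and its 2 highest values came from the arrays numbered 3. The log2 difference was 0.19 (standard error 0.27), and it was -0.12 without MG replicate 3. Impact, a regulator of protein synthesis under amino acid shortage, was steady, between 9.39 and 9.62. Gnas, whose locus makes the stimulatory G protein alpha subunit and other transcripts of different parental origin, was read by a probe set between 5.80 and 5.98. It need not cover the main transcript. Slc38a4, an amino acid transporter of liver and placenta, was below the reference level on every array, between 3.78 and 4.64.

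Gatm, the first enzyme of creatine synthesis, is imprinted in the placenta, as is Dcn. Gatm stood at 10.25, 10.31 and 10.01 on the PBS arrays and at 10.41, 10.19 and 9.84 on the MG arrays. The arrays numbered 3 gave its 2 lowest values, and the log2 difference was -0.05 (standard error 0.17). Dcn encodes decorin, a proteoglycan made by fibroblasts. It was below the reference level on every array, at 3.96, 4.10 and 3.83 after PBS and at 3.47, 3.62 and 3.62 after MG, and the groups did not overlap. Its log2 difference was -0.40 (standard error 0.12, unadjusted p = 0.0126 in limma, exact two-sided permutation p = 0.1), and -0.33 without PBS replicate 2 (unadjusted p = 0.0568). Of the 6 fibroblast and pericyte markers 4 had lower means in MG and 0 had an unadjusted p under 0.05. Their log2 values summed to between 30.50 and 30.73 in PBS and to between 29.71 and 29.85 in MG. Such sums were made only for these markers and for those of dividing progenitors, chosen after their values were seen. No share over all genes was made for them, so how often such a sum parts the groups is not known. The largest log2 difference was that of the fibroblast gene Lum (-0.42, unadjusted p = 0.0536 in limma), which lay below the reference level on every array. Col1a1 (-0.26), Pdgfrb (-0.16) and Col1a2 (-0.10) were also lower, while Col3a1 (0.06) and Rgs5 (0.09) were higher. Ttr, a marker of choroid plexus cells that lay near the reference level, was the 1 cell type marker with an unadjusted p under 0.05. It stood at 5.14, 5.21 and 5.16 on the PBS arrays and at 5.01, 4.68 and 4.70 on the MG arrays. Its log2 difference was -0.37 (unadjusted p = 0.0203 in limma). That of Folr1, the other measured choroid plexus marker, had the opposite sign, at 0.18 (unadjusted p = 0.267). The part of such cells in the Dcn values was not tested, and in bulk samples fewer cells of a type and less RNA per cell cannot be told apart.

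The spread between animals varied from gene to gene. Among the 22 imprinted genes above the reference level, the standard deviation of the 3 log2 values ran from 0.02 (Mkrn3) to 0.39 (Plagl1) in PBS and from 0.03 (Usp29) to 0.58 (Peg10) in MG. The median was 0.14 in PBS and 0.12 in MG, beside 0.14 and 0.18 over all genes at such levels. In 14 of the 22 (63.6%) the standard deviation was larger in MG, close to the 61.6% of all genes. Taken gene by gene, the median log2 ratio of the standard deviations, MG over PBS, was 0.70 in the 22. It was 0.30 in all genes at such levels, 0.035 in the paternally and 0.81 in the maternally expressed genes. Of the paternally expressed genes it was larger in MG in 7 of 13, and of the maternally expressed in 5 of 6. The median standard deviation was 0.15 in PBS and 0.12 in MG for paternal expression, and 0.12 and 0.11 for maternal expression. Blcap (0.06 and 0.31), Nnat (0.11 and 0.31) and Airn (0.12 and 0.33) were among those with the larger spread in MG, while Usp29 (0.24 and 0.03) and Ascl2 (0.31 and 0.04) were among those with the smaller. Each value rests on 3 animals, and no test of the spread was made. Over all 30 genes the median in PBS was 0.15 with all 3 animals. It was 0.06 without PBS replicate 3, 0.10 without PBS replicate 1 and 0.16 without PBS replicate 2. The latter values rest on 2 animals each and are not directly comparable with that from 3.

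**Figure D4:**
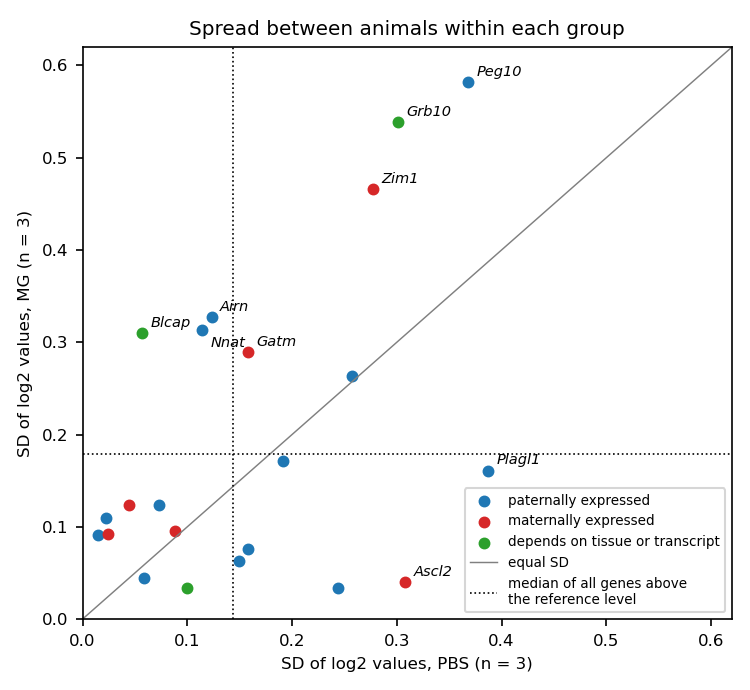
Standard deviation of the log2 values of the 3 MG animals (vertical axis) against that of the 3 PBS animals (horizontal axis) for the 22 imprinted genes above the reference level, coloured by expressed allele, with the line of equality and dotted lines at the medians of all genes at such levels (0.14 and 0.18). Peg10, Grb10 and Zim1 vary most in MG, and Plagl1 and Ascl2 lie far below the line.

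Other imprinted genes, from a further list of 45, also differed little between the groups. Of these, 39 had a probe set of their own, 31 of them above the reference level, with 15 higher and 24 lower means in MG (38.5% higher, against 53.8% of all genes) and a median log2 difference of -0.04. Rasgrf1, a paternally expressed exchange factor of Ras, was the 1 gene of the 39 (2.56%, against 3.21% of all genes) with an unadjusted p under 0.05 in limma (0.0426). It stood at 5.01, 4.36 and 4.68 on the PBS arrays and at 4.46, 4.18 and 4.06 on the MG arrays, below the reference level and with overlap. Igf2, the fetal growth factor gene next to H19, stood at 5.81, 5.71 and 5.57 after PBS and at 5.69, 5.67 and 5.51 after MG. Cdkn1c, the cell cycle inhibitor p57, stood at 6.81, 7.16 and 6.39 on the PBS arrays and at 7.40, 7.37 and 6.40 on the MG arrays, with the arrays numbered 3 the lowest of the 6. Its log2 difference was 0.27 (unadjusted p = 0.395 in limma).

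Among genes that set or keep imprints none passed the test. All 24 listed regulators had a probe set of their own, 20 above the reference level. Over the 24 the log2 differences ran from -0.06 to 0.24, with 0 at an unadjusted p under 0.05 in limma. Of the 24, 17 had a higher and 7 a lower mean in MG (70.8% higher, against 53.8% of all genes). The groups did not overlap in 2 (8.33%, against 7.34% of all genes), both higher in MG. Zfp57 stood at 7.46, 7.09 and 7.87 after PBS and at 7.14, 7.52 and 7.90 after MG. Dnmt1, the methyltransferase that copies methylation after replication, stood at 9.61, 9.81 and 10.20 on the PBS arrays and at 9.79, 9.61 and 10.14 on the MG arrays. Both were highest on the arrays numbered 3, as Mki67 was, and so were 9 of the 20 regulators above the reference level (45%), against 22.5% of all genes at such levels. The log2 differences between the groups were 0.05 for Zfp57 and -0.03 for Dnmt1.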

How the data were processed

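RNA was measured on 6 arrays, 3 per group. The values deposited by the authors are log2 expression per probe set (0.73 to 13.81, array medians 5.25 to 5.42), a scale inferred from their range. The submitters' processing notes list Partek 6.6. For background correction, normalisation, summarisation and genome build, the methods were not given in the sources used here.

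Of 41345 probe sets, 23521 named 1 gene in the platform annotation, 1814 several and 16010 none, with symbols updated through RefSeq (GRCm38.p6). The probe set with the highest mean was used for the 1082 genes with several. limma 3.58.1 (lmFit, eBayes, two-sided, no covariate) in R 4.3.3 compared the groups over 22180 genes, with Benjamini-Hochberg adjusted p-values and a threshold of 0.05. The fit was tested on simulated data. Figures used matplotlib 3.10.9. For arrays, their number limits the precision.

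The members, lists, reference level and naming rule were chosen with earlier results of these data known. The rule gives every member; array values go to those with an unadjusted p under 0.05, no overlap, a large distance of the arrays numbered 3, or a shared locus. Of the other imprinted genes and the regulators it names Igf2, Cdkn1c and genes with an unadjusted p under 0.05. Markers, microRNAs, Zfp57 and Dnmt1 were chosen after their values were seen. The alternatives are named in the closing section.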

Additional observations from a re-analysis of the deposited data

How the results depend on the processing

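No imprinted gene passed the adjusted threshold under any alternative. There were 330 single-gene values under the 11 settings that can change a log2 difference of at least some genes. Of these, 284 kept their direction and 46 changed sign, and 12 of 30 genes kept their sign throughout. The mean of the probe sets of a gene could move only Nnat, Plagl1 and Ube3a, which have 2 probe sets each. It moved them as given above and changed none of their signs. The other genes kept their main values in that setting, and these are counted among the 284. Trend and robust moderation, no moderation, the block and the filter leave the differences themselves as they are. Testing only genes above the reference level in a group mean left 294 genes with an unadjusted p under 0.05, 0 imprinted genes among them and 1 imprinted gene without overlap (4.35%, against 5.92%), since the dim genes were not tested. With Grb10 grouped with the paternal, and Blcap and Gnas with the maternal genes, the class medians were 0.04 and -0.05, and with only brighter members 0.04 and -0.08. Array weights gave 1163 genes with an unadjusted p under 0.05, against 712. With both arrays numbered 3 left out, an alternative chosen after seeing the data, 9 imprinted genes (30.0%, against 31.2% of all genes) did not overlap. The paternal median was then 0.0031, and the median standard deviation in PBS, from 2 animals, was 0.059. Leaving out 1 array gave 416 (without PBS replicate 1) to 956 (without MG replicate 1) genes with an unadjusted p under 0.05. Imprinted genes without overlap then numbered 5 (without MG replicate 3, 16.7% against 18.4% of all genes) to 8 (without PBS replicate 2, 26.7% against 15.9%). The median standard deviation in PBS ran from 0.059 to 0.16, with both ends from 2 animals. Signs changed under quantile normalisation (log2 differences Usp29 -0.0013 and Sgce -0.029), median centring (Mest -0.0042 and Sgce -0.00030), array weights (Usp29 -0.017, Calcr 0.012, Gnas -0.023 and Airn -0.017) and without both arrays numbered 3 (Dlk1 -0.040, Peg3 -0.019, Usp29 -0.063, Blcap -0.047, Impact 0.0031, Gnas -0.062, Airn -0.13 and Gatm 0.018). With 1 array left out, the log2 differences that changed sign ran over these ranges: Airn -0.13 to 0.20, Ascl2 -0.24 to 0.049, Blcap -0.024 to 0.28, Calcr -0.15 to 0.039, Dlk1 -0.00078 to 0.15, Gatm -0.18 to 0.11, Gnas -0.045 to 0.046, Grb10 -0.12 to 0.40, Impact -0.071 to 0.045, Kcnq1ot1 -0.20 to 0.052, Mest -0.077 to 0.11, Peg10 -0.21 to 0.36, Peg3 -0.044 to 0.10, Plagl1 -0.014 to 0.33, Sgce -0.050 to 0.059, Slc38a4 -0.35 to 0.087, Usp29 -0.059 to 0.18 and Zim1 -0.20 to 0.24. The cause was not tested.

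With the replicate number as a block (replicate block), 1063 genes and 3 imprinted genes had an unadjusted p under 0.05 in limma, and 0 genes an adjusted one. Deviations from the group means correlated between same-numbered arrays at 0.22, 0.04 and 0.45, the highest for the arrays numbered 3. No label pairs the arrays by number, and the main fit used no block. What same-numbered arrays may share was not tested.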
